A study of Mus musculus with 20 samples.

Results

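The complement C3a receptor gene C3ar1 was examined with C3, which encodes the precursor of its ligand, and with C5ar1, which encodes the related receptor of the anaphylatoxin C5a. The 3 genes were taken by symbol from the gene-level count tables, in which they are 3 of 24513 genes, and all 3 were among the 16657 genes with enough counts to be tested. The data are polyA RNA-seq libraries of whole hippocampus from male mice 9 months old on a C57BL/6J background, per the labels, with 5 libraries for each of 4 genotypes: WT, PS19, C3aR KO and, carrying both, PS19/C3aR KO. PS19 mice carry a mutant human tau transgene driven by the mouse prion protein promoter, and C3aR KO is the submitters' label for a disrupted C3a receptor gene; no treatment is named, and the labels do not say whether libraries of a genotype came from separate mice, so a p-value speaks to the spread among libraries, which may be technical.

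Complement C3 is the central protein of the complement cascade. The classical, lectin and alternative pathways all lead to convertases that cut C3 into C3b, which tags surfaces for uptake, and C3a, a small peptide that signals through the G protein-coupled receptor C3aR. In brain tissue C3 is known as a product of reactive astrocytes, while C3aR and C5aR1 are known mainly from microglia, the resident macrophages, and C5aR1 also from infiltrating myeloid cells.

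On mouse build mm10, C3ar1 lies on the minus strand at chr6:122847138-122856161 in 2 exon blocks totalling 4305 bases, C3 on the minus strand at chr17:57203970-57228136 in 42 exon blocks totalling 5143 bases, and C5ar1 on the minus strand at chr7:16246743-16259540 in 3 exon blocks totalling 2570 bases, by the GENCODE annotation. C3 was the only member that overlapped another annotated gene, the microRNA gene Mir6978, which shares 0 bases with its exons. Counts were summed over the exons of each gene, and where in a transcript the reads fell cannot be seen.

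The promoters of C3ar1 and C3 are shown because, among the 3 members, these genes had the largest differences and were related between libraries within genotypes. That relation was modest (r = 0.46, permutation adjusted p = 0.0303). Its call was lost on leaving out any 1 of 7 libraries, as given below. Shared control of these genes was not tested. The 250 bases before the RefSeq start (GRCm38.p6, the assembly behind mm10) are chr6:122856158-122856407 for C3ar1 and chr17:57228137-57228386 for C3, both printed 5′ to 3′ on the minus strand with motif matches in capitals.
C3ar1: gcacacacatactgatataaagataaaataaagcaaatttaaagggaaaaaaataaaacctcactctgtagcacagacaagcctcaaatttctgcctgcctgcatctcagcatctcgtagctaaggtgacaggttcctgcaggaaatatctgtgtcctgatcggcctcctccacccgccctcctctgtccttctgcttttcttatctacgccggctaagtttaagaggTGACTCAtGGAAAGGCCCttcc
C3: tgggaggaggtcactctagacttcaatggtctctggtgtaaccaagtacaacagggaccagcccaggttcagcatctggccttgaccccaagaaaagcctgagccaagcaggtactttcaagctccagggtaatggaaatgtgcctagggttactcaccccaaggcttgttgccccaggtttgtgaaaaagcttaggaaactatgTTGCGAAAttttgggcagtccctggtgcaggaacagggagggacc
In capitals are a match to the AP-1 motif TGANTCA and, on the opposite strand, to the NF-kB motif (GGG and TTCC with 3 bases of any kind between) in the C3ar1 window, 22 and 14 bases before the start, and a match to the C/EBP motif TTGCNNAA in the C3 window, 45 bases before it. Both strands were searched for these 3 motifs, for the PU.1 core GAGGAA and for the STAT motif TTCNNNGAA. Of 27025 promoter windows of the same length, 6.87% held the AP-1 motif, 4.60% the NF-kB motif, 9.55% the C/EBP motif, 23.1% the PU.1 core and 7.18% the STAT motif. The C5ar1 window, chr7:16259339-16259588 by RefSeq, held none of the 5. By GENCODE C5ar1 reaches 16259540, so most of that window lies within the gene as placed above. A match is a description of letters, not a site in use.

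Each library held 33885850 to 47828111 counts assigned to genes. C3ar1, the gene that the C3aR KO label names, was higher and not lower in the libraries with that label. The labels do not say which part of the gene was changed, and gene-level counts do not show it, so directions are given for the libraries as labelled. Prnp, the gene whose promoter drives the transgene, lay at 825 to 949 CPM (counts per 1000000 of the TMM-scaled library size) in the 10 libraries without PS19 in the label and at 1828 to 2026 CPM in the 10 with it. The share of counts from Rn45s, the ribosomal RNA precursor, was 2.85% to 4.48% in WT and 0.873% to 1.77% in 4 of the 5 PS19 libraries, while PS19 library 5 had 3.65%. Ttr, the main transcript of choroid plexus, ranged from 9.53 to 4060 CPM and was high in some libraries and low in others of every genotype. Markers of microglia and of reactive astrocytes were present in all libraries and are given beside the results they move with.

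C3ar1, the receptor, was lowest in WT, higher in PS19, and highest in the libraries labelled C3aR KO and PS19/C3aR KO. In WT the libraries held 2.30, 1.88, 2.11, 1.73 and 2.42 CPM (mean 2.09 ± 0.286, SD, n = 5), from 65 to 93 counts each. Those labelled C3aR KO held 15.03, 14.1, 16.6, 18.0 and 16.1 CPM (15.98 ± 1.48, SD, n = 5), from 555 to 772 counts. Every library labelled as lacking the receptor therefore held more C3ar1 counts than every WT library, which goes against the direction of the label.

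The PS19 libraries held 11.5, 9.04, 12.3, 13.7 and 4.98 CPM of C3ar1 (10.3 ± 3.43, SD, n = 5). Those labelled PS19/C3aR KO held 18.0, 18.7, 15.8, 14.96 and 17.5 CPM (17.0 ± 1.58, SD, n = 5). PS19 library 5 was the lowest of its group and still above the highest WT library, and no PS19 library reached the lowest library labelled PS19/C3aR KO or C3aR KO. In the order WT, PS19, C3aR KO, PS19/C3aR KO, only the last pair overlapped.

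Per kilobase of exon, C3ar1 stood at 0.484 ± 0.0665 CPM in WT and 3.71 ± 0.343 CPM in the libraries labelled C3aR KO (SD, n = 5 each). On the same scale C5ar1 stood at 0.179 ± 0.0666 CPM in WT and 0.294 ± 0.0459 CPM in the libraries labelled C3aR KO, below C3ar1 in both. C3 per kilobase was 0.605 ± 0.403 CPM in WT, where its range included all C3ar1 values, and 4.21 ± 2.37 CPM in PS19, where C3ar1 stood at 2.39 ± 0.797 CPM.

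**Figure D1:**
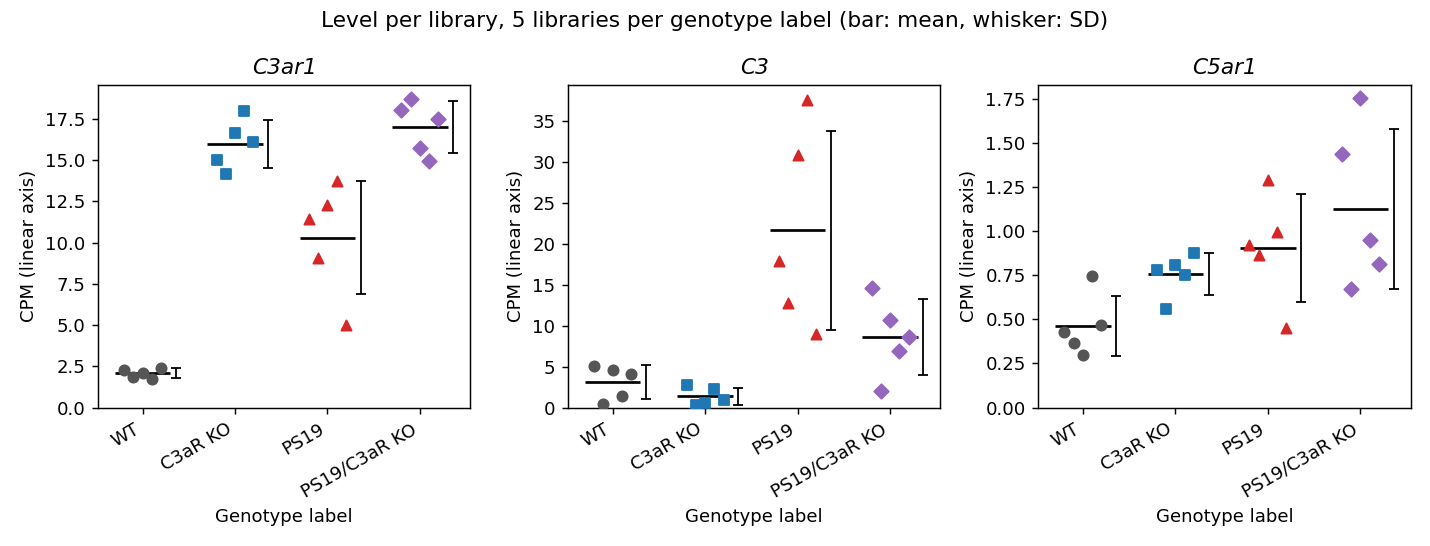
CPM of C3ar1, C3 and C5ar1 in each library (points) by genotype label, on linear axes that start at 0, with the mean as a bar and the SD as a whisker (n = 5 per label). C3ar1 lies between 1.73 and 2.42 CPM in WT and between 14.1 and 18.0 CPM in the libraries labelled C3aR KO; C3 is highest in PS19, from 8.95 to 37.6 CPM; C5ar1 lies between 0.297 and 1.75 CPM over all libraries.

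C3, the ligand precursor, was highest in PS19 and varied widely within each genotype. WT libraries held 5.06, 0.439, 4.54, 1.36 and 4.16 CPM (3.11 ± 2.07, SD, n = 5), and those labelled C3aR KO held 2.73, 0.357, 0.565, 2.23 and 0.960 CPM (1.37 ± 1.05, SD, n = 5). The lowest of these rested on 18 counts in WT and 14 counts in the C3aR KO label. The groups overlapped, with WT libraries 1, 3 and 5 above every library labelled C3aR KO.

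PS19 libraries held 17.9, 12.8, 30.9, 37.6 and 8.95 CPM of C3 (21.6 ± 12.2, SD, n = 5). Those labelled PS19/C3aR KO held 14.7, 2.06, 10.6, 6.88 and 8.66 CPM (8.58 ± 4.65, SD, n = 5). All PS19 libraries were above all WT libraries, while the PS19/C3aR KO label overlapped every other group, its library 2 lying inside the ranges of WT and C3aR KO. In the order C3aR KO, WT, PS19/C3aR KO, PS19, each neighbouring pair overlapped.

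C5ar1, the C5a receptor, was the least abundant of the 3 genes, with 10 to 61 counts per library. WT libraries held 0.429, 0.366, 0.297, 0.744 and 0.468 CPM (0.461 ± 0.171, SD, n = 5), and those labelled C3aR KO held 0.777, 0.561, 0.807, 0.751 and 0.877 CPM (0.754 ± 0.118, SD, n = 5). PS19 libraries held 0.918, 0.865, 1.29, 0.996 and 0.448 CPM (0.904 ± 0.304, SD, n = 5), and those labelled PS19/C3aR KO held 1.44, 0.672, 1.75, 0.948 and 0.815 CPM (1.12 ± 0.454, SD, n = 5). The order of means was WT, C3aR KO, PS19, PS19/C3aR KO, and every neighbouring pair overlapped.

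With the tau transgene alone, both receptors and the ligand precursor rose. C3ar1 was 4.95-fold higher in PS19 than in WT (log2 fold change 2.31 ± 0.20, SE; edgeR quasi-likelihood test over all tested genes, Benjamini-Hochberg adjusted p = 2.64e-06, ranked 2 of 16657 by p), C3 was 7.01-fold higher (log2 2.81 ± 0.62, adjusted p = 0.00578), and C5ar1 was 1.95-fold higher (log2 0.97 ± 0.30, adjusted p = 0.0470). Thus 3 of 3 members were called, that is, passed an adjusted p of 0.05, against 10.8% of all genes tested. The members and the gene lists below were chosen with earlier results of these data known. Such counts beside the share of all genes are therefore a description and no test of enrichment. The C5ar1 call was narrow: PS19 library 5 lay within the WT range, the adjusted p became 0.354 with a log2 fold change of 0.68 when the Rn45s share was a covariate, and leaving out 1 library at a time gave 0.0119 to 0.139, with the call lost for 13 of the 20.

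The Rn45s share differed between these groups, and PS19 library 5, whose share lay within the WT range, had C3ar1 at 4.98 CPM and C3 at 8.95 CPM, above every WT library. With the Rn45s share as a covariate, C3ar1 was 2.12 ± 0.23 (SE) and C3 3.25 ± 0.81 higher on the log2 scale (edgeR adjusted p = 0.000164 and 0.0391). The share went largely with the genotype label, so its part and that of the genotype cannot be fully told apart. Its part was not tested.

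In the libraries labelled C3aR KO without the transgene, C3ar1 was the gene with the smallest p of all genes tested. Its level was 7.66-fold that of WT (log2 2.94 ± 0.20, SE; edgeR adjusted p = 9.51e-08), against the direction of the label. C3 and C5ar1 did not pass the test (log2 -1.18 ± 0.65, adjusted p = 0.868, and 0.71 ± 0.31, adjusted p = 0.801), so 1 of 3 members was called, against 0.06% of all genes tested (10 genes). The Rn45s share was 0.923% to 1.99% in 4 of these libraries and 4.34% in library 1, which held 15.03 CPM of C3ar1. Fitted with that share as a covariate, C3ar1 differed by 2.77 ± 0.22 on the log2 scale (SE; edgeR adjusted p = 2.57e-06). Here too the share went largely with the label, and its part was not tested.

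The genes nearest to C3ar1 on chromosome 6 were read for the same comparison. Of the 3 tested genes on each side (Nanog, Slc2a3 and Foxj2; Necap1, Clec4a1 and Clec4a3), 0 of 6 were called between the libraries labelled C3aR KO and WT by edgeR, 0 had an unadjusted p under 0.05, and DESeq2 called 0, with log2 fold changes from -0.24 to 0.19; as 0.06% of all genes were called, 0 of 6 is near the background. Foxj2, which ends 1774 bases from C3ar1, stood at -0.04 ± 0.04 (SE). In PS19 minus WT, 1 of the 6 around C3ar1 was called higher, Clec4a3 (log2 1.01 ± 0.26, SE), and 1 lower, Slc2a3 (-0.22 ± 0.06). Of all genes 7.5% and 3.32% were called so. Around C3, 3 of 6 neighbours were called in PS19 minus WT, against 10.8% of all genes (Trip10, Gpr108 and Vav1, log2 0.39, 0.28 and 1.27). Around C5ar1, 0 of 6 were called by edgeR or DESeq2 in PS19 minus WT and 0 had an unadjusted p under 0.05. In PS19/C3aR KO minus PS19, edgeR called 0 of the 6 around C5ar1, against 0.252% of all genes. DESeq2 called 2 there, against 441 of 16657 genes. At an unadjusted p under 0.05, C5ar2 (log2 1.31 ± 0.40, SE) and Inafm1 (0.28 ± 0.07) were higher and Dhx34 (-0.20 ± 0.07) was lower.

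Within the tau background, C3ar1 was 1.65-fold higher in the libraries labelled PS19/C3aR KO than in PS19 (log2 0.72 ± 0.18, SE; edgeR adjusted p = 0.0814), again against the direction of the label. The groups did not overlap, but the adjusted p missed the threshold; without PS19 library 5 the difference was 0.55 with an adjusted p of 0.0159, and DESeq2 on all libraries gave 0.72 with 0.00968. C3 was lower by 1.34 ± 0.57 on the log2 scale (unadjusted p = 0.0308, edgeR adjusted p = 0.286), and C5ar1 differed by 0.31 ± 0.29 (edgeR adjusted p = 0.670). So 0 of 3 members were called by edgeR, against 0.252% of all genes, 2 had an unadjusted p under 0.05, and DESeq2 called C3ar1 alone.

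The effect of the transgene was next read among libraries labelled C3aR KO, that is, PS19/C3aR KO against C3aR KO. C3ar1 differed by 0.09 ± 0.17 on the log2 scale (SE; edgeR adjusted p = 0.947). C3 was 6.27-fold higher on average (log2 2.65 ± 0.64), with overlapping groups and an edgeR adjusted p of 0.129; the adjusted p was 0.0466 without PS19/C3aR KO library 2 (log2 2.90) and 0.0133 by DESeq2. C5ar1 differed by 0.57 ± 0.29 (edgeR adjusted p = 0.561). With edgeR 0 of 3 members were called, against 0.006% of all genes, the called gene being Prnp; 1 member, C3, had an unadjusted p under 0.05 and was called by DESeq2.

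The difference between the transgene's effects on the 2 backgrounds was tested as an interaction, the PS19 effect among libraries with C3aR KO in the label minus that among the others. For C3ar1 it was -2.22 ± 0.26 on the log2 scale (SE; edgeR adjusted p = 0.00106), the smallest p of all genes. The level rose with the transgene from 2.09 to 10.3 CPM where the label lacks C3aR KO, and stood at 15.98 and 17.0 CPM where it has it. For C3 (-0.16 ± 0.87) and C5ar1 (-0.40 ± 0.42) the edgeR adjusted p rounded to 1. Thus 1 of 3 members was called, against 0.012% of all genes; the other gene called was Gbp2b, an interferon-inducible GTPase whose reads can be shared with other Gbp genes (-6.16 ± 0.79, edgeR adjusted p = 0.00188).

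**Figure D2:**
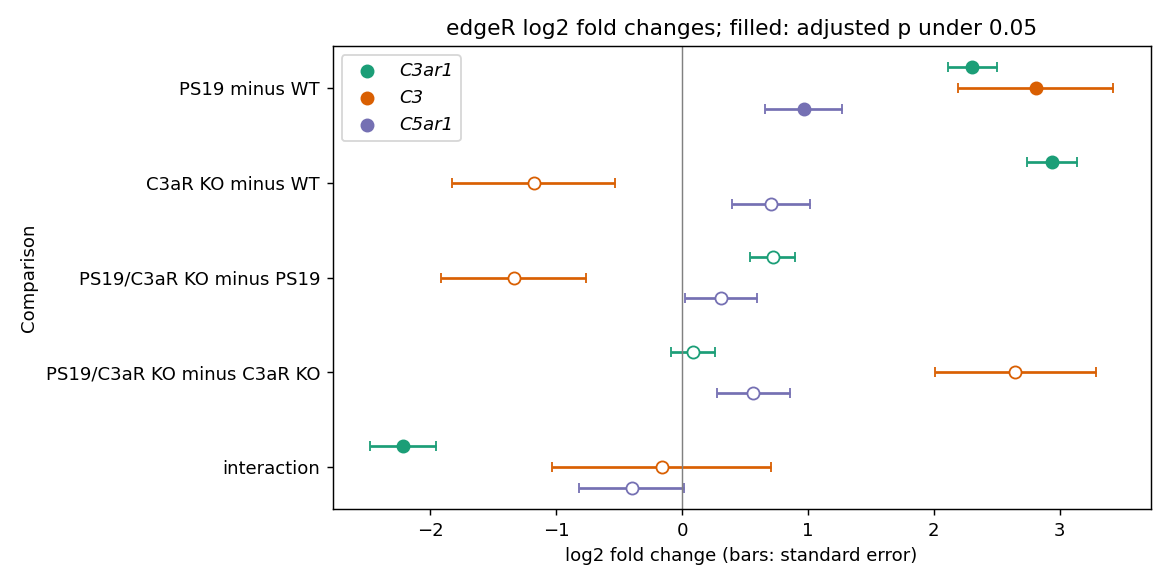
log2 fold changes from edgeR (points, with the standard error as bars) of C3ar1, C3 and C5ar1 in the 5 comparisons; filled points passed an adjusted p of 0.05. C3ar1 is at 2.31 in PS19 minus WT and 2.94 in C3aR KO minus WT, near 0 in PS19/C3aR KO minus C3aR KO, and at -2.22 in the interaction.

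Microglial genes were read beside each of these differences. All 13 general microglial markers measured (among them Csf1r, Cx3cr1, Aif1 and Tyrobp) were called higher in PS19 than in WT, against 7.5% of all genes (median log2 fold change 1.37, against -0.01 for all genes). Between the libraries labelled C3aR KO and WT 0 of 13 were called (median -0.05, 0 with an unadjusted p under 0.05, 0 by DESeq2). As 0.06% of all genes were called there, 0 of 13 is near the background. Between the PS19/C3aR KO label and PS19, where the C3ar1 difference was 0.72, 0 of 13 were called by edgeR, against 0.252% of all genes. At an unadjusted p under 0.05, 13 were lower (median -0.65), against 1484 of all 16657 genes, and DESeq2 called 10. Between the PS19/C3aR KO and C3aR KO labels 0 of 13 were called by edgeR, against 0.006% of all genes. At an unadjusted p under 0.05, 13 were higher (median 0.80), against 994 of all 16657 genes, and DESeq2 called 7. Their summed level was 336 to 379 CPM in WT, 339 to 384 CPM in the C3aR KO label, 497 to 999.8 CPM in PS19 and 412 to 712 CPM in the PS19/C3aR KO label. In whole tissue, fewer cells of a type and less RNA per cell cannot be told apart.

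C3ar1 was therefore also set against the mean log2 level of these 13 genes within each library. The log2 ratio was -2.60 ± 0.17 in WT, -1.73 ± 0.16 in PS19, 0.33 ± 0.11 in the C3aR KO label and -0.24 ± 0.46 in the PS19/C3aR KO label (SD, n = 5 each). The 4 groups did not overlap. In exact two-sided permutation tests over 5 against 5 libraries, the ratio was higher in PS19 than in WT by 0.87 ± 0.10 (SE), in C3aR KO than in WT by 2.94 ± 0.09, and in PS19/C3aR KO than in PS19 by 1.48 ± 0.22, each with p = 0.00794, the smallest this design allows, and p = 0.0181 after Benjamini-Hochberg adjustment over 16 ratio tests. The differences involving the C3aR KO label again ran against its direction. In PS19/C3aR KO minus PS19, C3ar1 itself was 0.72 ± 0.18 (SE) higher (edgeR adjusted p = 0.0814) and the 13 genes were lower (median -0.65), so the ratio holds both.

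Between the PS19/C3aR KO and C3aR KO labels C3ar1 itself differed by 0.09 ± 0.17 (SE), while the 13 microglial genes had a median of 0.80. The same ratio was lower there by 0.58 ± 0.21 (difference -0.58, exact permutation adjusted p = 0.0181). That call depended on the marker list: against 7 resting microglial genes such as P2ry12 and Tmem119 the difference was -0.26 (exact permutation adjusted p = 0.104). The call was also lost on leaving out any 1 of the 5 libraries labelled C3aR KO (exact permutation adjusted p 0.0635 to 0.0847). The difference then stayed at -0.60 to -0.55 and the groups stayed apart, so no particular library carried it.

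C5ar1 per microglial level gave another order. Its log2 ratio was -4.71 ± 0.44 in WT, -5.16 ± 0.15 in PS19, -3.99 ± 0.19 in the C3aR KO label and -4.18 ± 0.20 in the PS19/C3aR KO label (SD, n = 5 each). It was higher in PS19/C3aR KO than in PS19 by 0.98 ± 0.11 (SE; exact permutation adjusted p = 0.0181, groups apart). In that comparison C5ar1 itself differed by 0.31 ± 0.29 (edgeR adjusted p = 0.670) and the 13 microglial genes were lower (median -0.65), so the ratio holds both. The ratio was higher in C3aR KO than in WT by 0.72 ± 0.21 (exact permutation adjusted p = 0.0476), with overlapping groups, and this call was lost for 9 of 10 libraries left out in turn (exact permutation adjusted p 0.0159 to 0.0794). The difference between PS19 and WT was -0.44 ± 0.21 (exact permutation adjusted p = 0.0705), but -0.57 with p = 0.0317 without WT library 3, and 0.31 against resting microglial genes. Between PS19/C3aR KO and C3aR KO it was -0.19 ± 0.12 (exact permutation adjusted p = 0.200), and 0.13 against resting microglial genes.

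C3ar1 was also compared directly with C5ar1 within libraries. The log2 ratio of C3ar1 to C5ar1 was 2.11 ± 0.56 in WT, 3.43 ± 0.21 in PS19, 4.32 ± 0.18 in the C3aR KO label and 3.94 ± 0.61 in the PS19/C3aR KO label (SD, n = 5 each). It was higher in PS19 than in WT by 1.32 ± 0.27 (SE) and in C3aR KO than in WT by 2.21 ± 0.26 (exact permutation adjusted p = 0.0181 each), so C3ar1 differed by more than the other receptor did. In PS19/C3aR KO minus PS19 the difference was 0.51 ± 0.29 (exact permutation adjusted p = 0.156; 0.71 and 0.0317 without PS19/C3aR KO library 3), and between the PS19/C3aR KO and C3aR KO labels it came to -0.39 ± 0.29 (exact permutation adjusted p = 0.237).

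**Figure D3:**
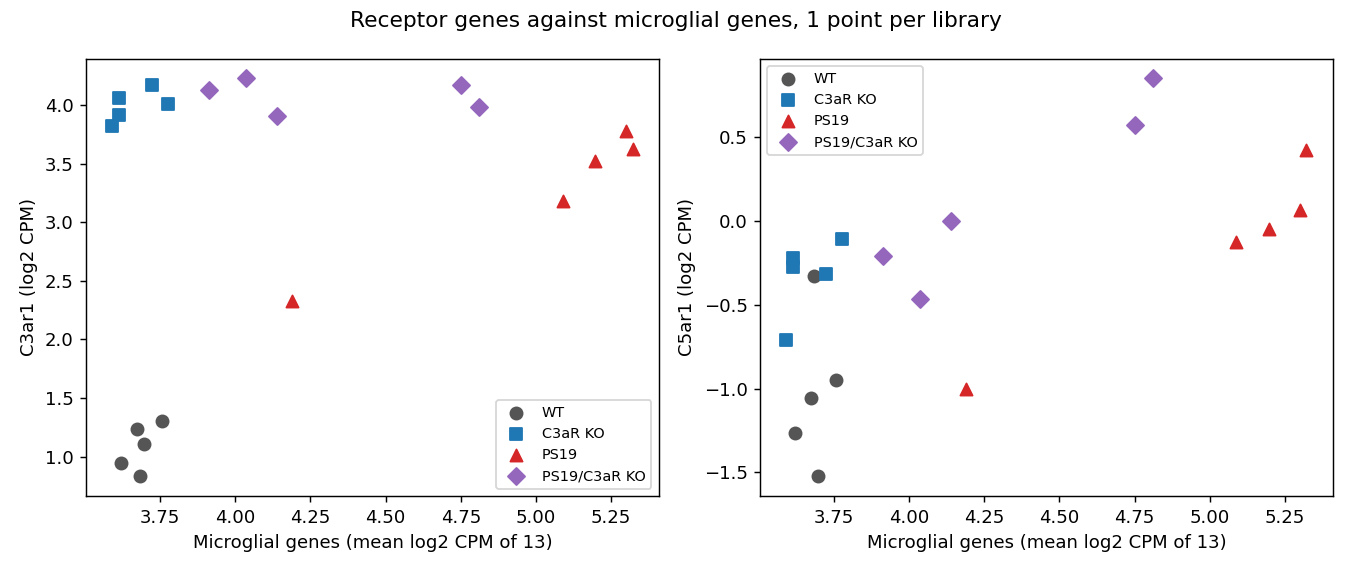
log2 CPM of C3ar1 (left) and C5ar1 (right) against the mean log2 CPM of 13 microglial genes, 1 point per library, marked by genotype label. The libraries labelled C3aR KO share the microglial levels of WT but lie higher in C3ar1, and PS19 library 5 is the triangle at the lowest microglial level of its group.

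Libraries of the same genotype were compared after each group's mean was taken off, in 7 relations over all 20 libraries with permutations within groups. C5ar1 followed the microglial genes (Pearson r = 0.81, permutation adjusted p = 0.00455; Spearman rho = 0.80, adjusted p = 0.00560; r = 0.79 without the 2 libraries farthest on the microglial axis). For C3ar1 the relation with the microglial genes was r = 0.66 (permutation adjusted p = 0.0752; rho = 0.50, adjusted p = 0.0446; r = 0.57 without 2 libraries), and r = 0.72 or 0.77 with permutation adjusted p of 0.0406 or 0.0227 without PS19/C3aR KO library 2 or 3. Without PS19 library 5 it fell to r = 0.14 (permutation adjusted p = 0.608), so the value rests on that library. C3ar1 and C5ar1 gave r = 0.41 (permutation adjusted p = 0.168; rho = 0.27, adjusted p = 0.284; r = 0.54 without 2 libraries), and r = -0.075 without PS19 library 5, so the positive value rests on that library.

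C3 and C3ar1 moved together within groups (r = 0.46, permutation adjusted p = 0.0303; rho = 0.51, adjusted p = 0.0410; r = 0.45 without 2 libraries). The value stayed between 0.405 and 0.57 when libraries were left out in turn, but its adjusted p passed 0.05 for 7 of them (WT 1, C3aR KO 2 and 4, PS19 2, 3, 4 and 5; r = 0.405 to 0.46). C3 with C5ar1 gave r = 0.40 (permutation adjusted p = 0.110; rho = 0.29, adjusted p = 0.260; r = 0.33 without 2 libraries), and 0.54 with 0.0263 without WT library 4.

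Genes of reactive astrocytes (Gfap, Vim, Serpina3n, Lcn2, Cd44, Osmr, Timp1, S1pr3 and Steap4) moved with C3. All 9 were called higher in PS19 than in WT, against 7.5% of all genes (median log2 1.73). Their summed level was 360 to 621 CPM in WT, 390 to 625 CPM in the C3aR KO label, 1080 to 3284 CPM in PS19 and 803 to 2261 CPM in the PS19/C3aR KO label. Within groups C3 followed their mean log2 level with r = 0.51 (permutation adjusted p = 0.0256; rho = 0.54, adjusted p = 0.0410; r = 0.42 without 2 libraries), and the adjusted p was 0.0511, 0.0649 or 0.0791 without C3aR KO library 2, PS19 library 4 or PS19 library 5 (r = 0.50, 0.47 and 0.49). PS19 library 5 was the lowest of its group in these genes and in the microglial genes (mean log2 3.41 and 4.19). The relation of C3 with the microglial genes was not tested, so this r is not shown to be particular to astrocyte genes.

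Relative to these astrocyte genes, differences in C3 between genotypes did not pass the test. The log2 ratio was -1.73 ± 1.47 in WT, -2.73 ± 1.03 in the C3aR KO label, -0.47 ± 0.38 in PS19 and -1.20 ± 0.83 in the PS19/C3aR KO label (SD, n = 5 each). PS19 minus WT was 1.26 ± 0.68 (SE; exact permutation adjusted p = 0.104; 1.56 and 0.0423 without WT library 3), and PS19/C3aR KO minus C3aR KO was 1.53 ± 0.59 (exact permutation adjusted p = 0.0762; 1.87 and 0.0423 without PS19/C3aR KO library 2). PS19/C3aR KO minus PS19 was -0.73 ± 0.41 and C3aR KO minus WT -1.002 ± 0.80 (exact permutation adjusted p = 0.106 and 0.254). Against 9 general astrocyte genes such as Aldh1l1 and Slc1a3 the differences between PS19 and WT and between the PS19/C3aR KO and C3aR KO labels were 2.61 and 2.55, with exact permutation adjusted p of 0.0212 and 0.0423.

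C3 was also read beside choroid plexus genes. The mean log2 level of 12 such genes, Ttr and Folr1 among them, split the libraries at its widest gap into 9 with low values (-0.03 to 2.08) and 11 with high values (3.72 to 5.78), with both kinds in every genotype. Over all 20 libraries within groups r was 0.50 (permutation adjusted p = 0.0752; rho = 0.55, adjusted p = 0.0410; r = 0.33 without 2 libraries), and no relation is read from so split a measure. Among the libraries labelled C3aR KO, the 3 low ones held 0.357 to 0.960 CPM of C3 and the 2 high ones 2.23 to 2.73 CPM; among those labelled PS19/C3aR KO, the 3 low ones held 2.06 to 10.6 CPM and the 2 high ones 8.66 to 14.7 CPM, so that low and high libraries were apart in the first label and overlapped in the second. Within each kind the PS19/C3aR KO label lay above the C3aR KO label. PS19 likewise lay above WT within each kind: 30.9 CPM in 1 low library against 0.439 and 4.16 CPM in WT, and 8.95 to 37.6 CPM in 4 high libraries against 1.36 to 5.06 CPM in 3. With Ttr as a covariate C3 in PS19 minus WT was 2.81 ± 0.56 (SE; edgeR adjusted p = 0.00270). The split was set from these same libraries and leaves 1 to 4 of a genotype on a side. The part of choroid plexus tissue in the C3 differences was not tested.

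**Figure D4:**
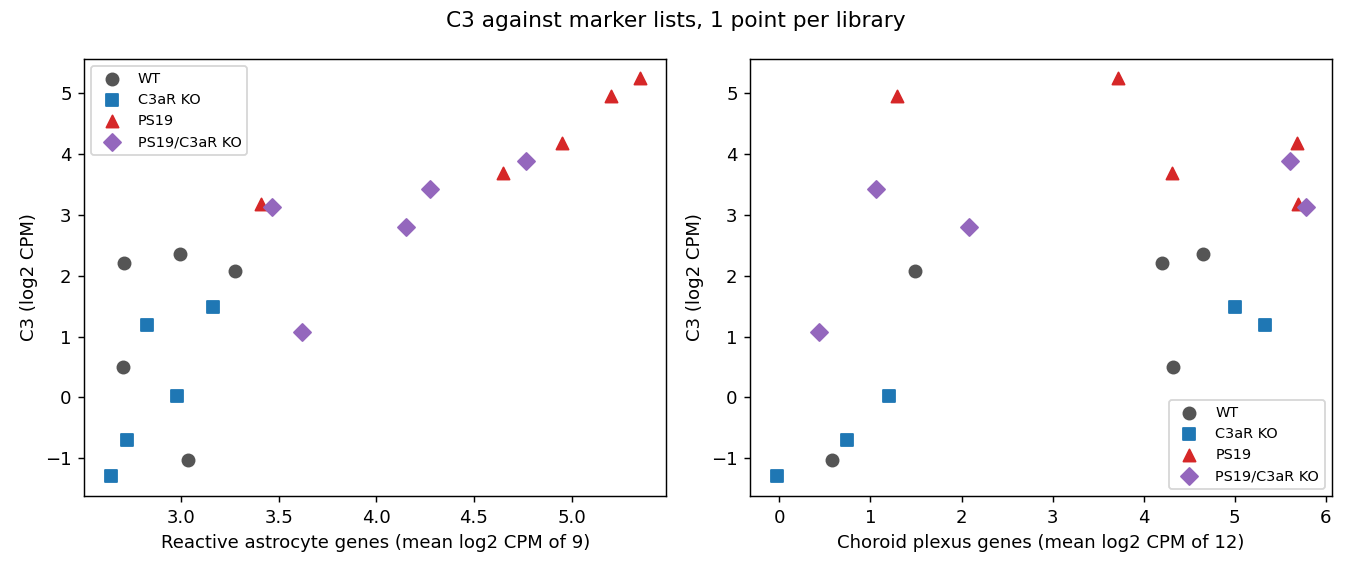
log2 CPM of C3 against the mean log2 CPM of 9 reactive astrocyte genes (left) and of 12 choroid plexus genes (right), 1 point per library, marked by genotype label. On the right the libraries fall into 9 with low and 11 with high choroid plexus levels, and the PS19 libraries lie above the WT libraries in both.

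The rest of the complement system was read by role. Of 37 complement genes listed besides the 3 members, 32 were tested, and 8 rose while 0 fell in PS19 against WT (median log2 0.27, against -0.01 for all genes, of which 7.5% rose and 3.32% fell). Among initiating and convertase genes 4 of 14 rose: C1qa, C1qb and C1qc, which encode the chains of the recognition protein C1q (log2 2.01 ± 0.26, 1.99 ± 0.23 and 1.93 ± 0.24, SE), and C4b, a component of the C3 convertase (2.33 ± 0.32), whose reads may be shared with the near-identical C4a (0.89 ± 0.46, edgeR adjusted p = 0.244). C4b went from 73.0 ± 12.8 CPM in WT to 367 ± 123 CPM in PS19 (SD, n = 5 each).

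Of the alternative pathway, Cfb, the factor B gene, stood at 0.05 ± 0.10 (SE) and Cfp, the properdin gene, at 0.14 ± 0.22 on the log2 scale in PS19 minus WT, neither called (edgeR adjusted p = 0.807 and 0.753). Among receptors for C3 fragments 3 of 4 tested rose, against 7.5% of all genes. These were Itgam and Itgb2, the subunits of complement receptor CR3 (log2 0.90 ± 0.20 and 1.72 ± 0.25), and Itgax, the alpha subunit of the related CR4 (4.94 ± 0.61). Itgax went from 0.492 ± 0.148 CPM in WT to 15.2 ± 9.28 CPM in PS19 (SD, n = 5 each).

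Of 9 regulators 1 rose in PS19 minus WT, a share near the 7.5% of all genes. It was Clu, which encodes clusterin, a fluid-phase inhibitor of the terminal pathway (log2 0.72 ± 0.10). Serping1, which encodes the C1 inhibitor, stood at 0.80 ± 0.29 (edgeR adjusted p = 0.0885).

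Partners of the anaphylatoxins were not called in PS19 minus WT: 0 of 5 by edgeR, 0 with an unadjusted p under 0.05 and 0 by DESeq2. Of all 16657 genes 10.8% were called by edgeR and 2243 by DESeq2. At an unadjusted p under 0.05, 2371 of them were higher and 1755 lower. In so short a list 0 of 5 is near the background. C5ar2, the second C5a receptor, whose gene lies 2589 bases from C5ar1, held 0.619 ± 0.365 CPM in WT and 0.416 ± 0.264 CPM in PS19 (SD, n = 5 each; log2 -0.55 ± 0.41, SE). It held 1.01 ± 0.116 CPM in the C3aR KO label and 1.05 ± 0.220 CPM in the PS19/C3aR KO label (SD, n = 5 each). In PS19/C3aR KO minus PS19 it was 1.31 ± 0.40 (SE) higher on the log2 scale (edgeR adjusted p = 0.130). DESeq2 called 1 of the 5 partners there, against 441 of 16657 genes. Hc, which encodes C5, stood at 0.507 ± 0.259 CPM in WT and 0.639 ± 0.243 CPM in PS19. Vgf, the precursor of the peptide TLQP-21, which is known to bind C3aR, was far more abundant than C3 and stood at 238 ± 18.9 CPM in WT, 303 ± 39.2 CPM in the C3aR KO label, 240 ± 46.9 CPM in PS19 and 277 ± 43.0 CPM in the PS19/C3aR KO label (SD, n = 5 each; edgeR adjusted p from 0.453 to 1 in the 5 comparisons).

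Genes of signalling linked to G protein-coupled receptors were read as well. In PS19 minus WT 6 of 7 rose (median log2 0.56), against 7.5% of all genes: Stat3 (0.64 ± 0.11), the G protein subunits Gnai2 (0.36 ± 0.06), Gnai3 (0.25 ± 0.05) and Gna15 (0.98 ± 0.22), and Pik3cg and Pik3r5, which encode subunits of PI3K gamma (0.86 ± 0.17 and 0.56 ± 0.16). Arrb2, the arrestin beta 2 gene, stood at 0.04 ± 0.05. With the Rn45s share as a covariate 2 of the 7 were called, against 431 of all 16657 genes.

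In the other comparisons 0 of the 32 complement genes and 0 of the 7 signalling genes were called by edgeR. Of all genes 0.06%, 0.252%, 0.006% and 0.012% were called there, in the order that follows, so 0 is near the background. At an unadjusted p under 0.05, 515 of 16657 genes were higher and 484 lower in C3aR KO minus WT. These counts were 932 and 1484 in PS19/C3aR KO minus PS19, 994 and 623 in PS19/C3aR KO minus C3aR KO, and 207 and 484 in the interaction. Between the C3aR KO label and WT 2 complement genes had an unadjusted p under 0.05 and DESeq2 called 0, with a median of 0.00, while C3ar1 was 2.94 higher on the log2 scale. In PS19/C3aR KO minus PS19, 1 complement gene was higher and 9 were lower at an unadjusted p under 0.05 (median -0.16), and DESeq2 called 6; edgeR called 5 complement genes without PS19 library 5, 5 without PS19/C3aR KO library 1 and 1 without PS19/C3aR KO library 3, and 4 signalling genes without PS19 library 5. In PS19/C3aR KO minus C3aR KO, 11 were higher at an unadjusted p under 0.05 (median 0.23) and DESeq2 called 5; edgeR called 6 without PS19 library 5 and 2 without PS19/C3aR KO library 2 or 5. In the interaction 6 were lower at an unadjusted p under 0.05 and DESeq2 called 0. Of the 7 signalling genes, 0, 5, 3 and 4 had an unadjusted p under 0.05 in these 4 comparisons in the same order, and DESeq2 called 0, 2, 0 and 0.

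Markers of other myeloid cells were present at low levels. The 8 border macrophage genes (Mrc1, Cd163, Lyve1 and others) summed to 9.19 to 14.5 CPM in WT, 5.51 to 15.3 CPM in the C3aR KO label, 10.6 to 22.03 CPM in PS19 and 10.4 to 12.9 CPM in the PS19/C3aR KO label, and 1 of 8 rose in PS19 against WT, a share near the 7.5% of all genes. The 8 neutrophil and monocyte genes summed to 17.4 to 21.3 CPM, 17.8 to 22.1 CPM, 20.4 to 98.5 CPM and 21.2 to 32.6 CPM in the same order, and 2 of 7 tested rose in PS19, against the same 7.5%. The mean log2 level of the 7 tested neutrophil and monocyte genes was 3.09 in PS19 library 3 and -0.27 to 0.77 in the other PS19 libraries. Library 3 also held the most C5ar1 in PS19, 1.29 CPM. None of the 16 was at 0 in all libraries. Their part in the differences of C5ar1 and C3ar1 was not tested.

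The genes whose pattern was most like each member were ranked by Pearson's r over the 20 libraries, as a description. Over uncentred log2 levels, C3ar1 was most like Gbp2b (r = 0.91), Tubb6 (0.88), Lamtor3 (0.85), Dpp7 (0.83) and Spata1 (0.81). Gbp2b, Tubb6, a beta tubulin gene, and Lamtor3, which encodes a Ragulator subunit, were also among the 10 genes called between the C3aR KO label and WT (log2 6.10 ± 0.66, 0.71 ± 0.12 and 0.26 ± 0.04, SE). With group means taken off, the genes most like C3ar1 were Oat (0.83), Rplp0 (0.80), Lamp1 (0.80), Slc39a1 (0.80) and Mlc1 (0.79), none of which was in the first set.

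C3 was most like Qk on both scales (r = 0.96 uncentred and 0.93 with group means taken off), the gene of an RNA-binding protein of glia, followed by Vwa5a (0.95 and 0.90). The uncentred set went on with Slc43a3 (0.94), Ctsc (0.93), which encodes cathepsin C, and Tspan15 (0.93), and the centred set with Tspan15 (0.89), Slc41a1 (0.89) and Golim4 (0.88). C5ar1, with group means taken off, was most like the immune cell genes Havcr2 (0.88), Pld4 (0.87) and Fcgr2b (0.87), then Pdlim4 (0.86) and Cd48 (0.85). Over uncentred levels the genes most like it were Ifi44 (0.82), Zmynd15 (0.80), Anxa3 (0.79), H2-DMb2 (0.79) and Cxcl5 (0.78).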

How the data were processed

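PolyA RNA of mouse hippocampus was sequenced as paired ends of 76 bases in 20 libraries. Per the labels' protocols, the authors aligned reads to mm10 with TopHat 2.0.9 and deposited raw counts per gene, made with htseq-count over the union of exons. Strand use is not given in the sources used here, and such counting can split near-identical genes. The submitters' processing notes also name DESeq2.

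Groups and replicate numbers came from the sample titles. Summary lines that name no gene were left out; reads in no feature came to 17.4% to 25.4%. With edgeR 4.0.16 in R 4.3.3, genes passing filterByExpr (minimum count 10, minimum total 15) were scaled by TMM and fitted with genotype as the only term over all libraries; p-values of the quasi-likelihood test were adjusted by Benjamini-Hochberg over 16657 genes within each comparison, and a call is an adjusted p under 0.05. Standard errors are the log2 fold change divided by the root of the F statistic. CPM values use TMM library sizes. Ratios and relations used log2 CPM with a prior count of 2; ratios were tested by exact permutation (252 splits, scipy 1.17.1) and relations with 100000 permutations within groups. Positions are from GENCODE vM21, neighbours and promoters from RefSeq (GRCm38.p6), which placed 99.8% of tested genes. No libraries agreed within sampling noise. The scripts were tested on simulated data.

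Named genes were the 3 members, the complement and signalling lists, the 3 nearest tested genes on each side and the 5 most alike on each scale, leaving out predicted genes. Members and lists were chosen with earlier results of these data known. Alternatives were DESeq2 1.42.0, other scalings, filters (no filter, minimum count 50), covariates (Rn45s, Ttr), a replicate block, the 2 groups alone, a prior count of 0.5, other marker lists and leaving out each library.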

Additional observations from a re-analysis of the deposited data

Results flagged for a closer look

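The effect of the tau transgene on C3ar1 differed between backgrounds by the test of the difference itself: the effect among libraries with C3aR KO in the label, where the level of the gene goes against that label, minus the effect among the others was -2.22 on the log2 scale (edgeR adjusted p = 0.00106).

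Each group of 5 libraries was also searched for a library far from the other 4, in 28 sets of values, of which chance would mark about 1 in 20. The log2 ratio of C5ar1 to microglial genes in PS19 library 3, -4.90, was the highest of its group, and its gap to the next library was 0.858 of the group's range. That library also had the highest level of neutrophil and monocyte genes in PS19 (mean log2 3.09), and a link between the 2 was not tested. The log2 ratio of C3ar1 to C5ar1 in WT library 4, 1.16, was the lowest of its group, with a gap of 0.713 of the range.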

How the results depend on the processing

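Over 38 results and all alternatives, 723 of 795 values kept their direction and their side of the threshold, 44 lost a call, 18 gained one and 10 changed sign. For C5ar1 in PS19 minus WT the call was lost with no low-count filter (0.97), with the Rn45s covariate (0.68) and with the 2 groups alone (0.97), and C5ar1 had no value at a minimum count of 50. DESeq2 called C3ar1 in PS19/C3aR KO minus PS19 (0.72) and C3 between the PS19/C3aR KO and C3aR KO labels (2.64). With the other marker lists, C3ar1 over microglial genes in PS19/C3aR KO minus C3aR KO lost its call (-0.26), C5ar1 over microglial genes changed sign between PS19 and WT (0.31) and between the 2 C3aR KO labels (0.13), and C3 over astrocyte genes gained calls in the same comparisons (2.61 and 2.55). In PS19 and PS19/C3aR KO libraries alone, r was 0.49 for C3ar1 with C3 (call lost) and 0.80 for C5ar1 with C3 (call gained). The cause of these changes was not tested. Same-numbered libraries of different groups deviated together with r over 0.1 in 16 of 30 pairs (median 0.14), and 6 of 20 libraries were most like one of their own number, so the numbers are not read as pairing; with the number as a replicate block r was 0.50 for C3ar1 with C3 (permutation adjusted p = 0.234) and 0.47 for C3 with reactive astrocyte genes (permutation adjusted p = 0.214), both calls lost, 2 and 1 complement genes were called in the comparisons of PS19/C3aR KO with PS19 and with C3aR KO, 212 genes were called in PS19/C3aR KO minus PS19 and 22 between the 2 C3aR KO labels, and no call of a member in the gene tests changed. A sign-flip test of paired ratios was not run, since 5 pairs cannot give a p under 0.0625.

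Leaving out each library in turn gave, as lowest to highest, 0.81 to 1.21 for C5ar1 in PS19 minus WT, 0.55 to 0.85 for C3ar1 in PS19/C3aR KO minus PS19, 2.37 to 3.05 for C3 in PS19/C3aR KO minus C3aR KO, and -0.44 to 0.24 for the C3 interaction, which changed sign for 7 libraries. For the ratios to microglial genes it gave -0.69 to -0.43 for C3ar1 in PS19/C3aR KO minus C3aR KO, and for C5ar1 -0.57 to -0.27 in PS19 minus WT and 0.59 to 0.90 in C3aR KO minus WT. C3ar1 over C5ar1 in PS19/C3aR KO minus PS19 ranged from 0.32 to 0.71, and C3 over reactive astrocyte genes from 0.67 to 1.56 in PS19 minus WT and from 1.23 to 1.87 in PS19/C3aR KO minus C3aR KO. Within groups r ranged from -0.075 to 0.57 (C3ar1 with C5ar1), 0.405 to 0.57 (C3ar1 with C3), 0.29 to 0.54 (C5ar1 with C3), 0.14 to 0.77 (C3ar1 with microglial genes), 0.46 to 0.64 (C3 with reactive astrocyte genes) and 0.41 to 0.61 (C3 with choroid plexus genes). 

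Counts over all genes moved as well. In PS19/C3aR KO minus PS19, 42 became 441 by DESeq2, 24 with library sizes only, 9 with the Rn45s covariate, 10 with the 2 groups alone and 6 to 481 on leaving out 1 library, which moved the count over 1.5 times for 11 of 20, the highest without PS19 library 5. In PS19/C3aR KO minus C3aR KO, 1 became 161 by DESeq2 and up to 105 on leaving out PS19 library 5. In C3aR KO minus WT, 10 became 59 by DESeq2, 3 with the Rn45s covariate and 5 with the 2 groups alone. In PS19 minus WT, 1803 became 431 with the Rn45s covariate and 1190 and 1201 without PS19 library 3 and WT library 4; the 553 lower calls became 176 with library sizes only, with 833 under the Ttr covariate. Depth limits the members with few counts: the lowest library held 10 counts of C5ar1 and 14 of C3.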

Other observations

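The positions of the 10 genes called between the C3aR KO label and WT were read after their values were seen and are given without a test. Besides C3ar1 on chromosome 6, 5 of the 10 lie on chromosome 3, which holds 4.83% of tested genes, between 123264801 and 154623182 (GRCm38.p6, by RefSeq). These are Sec24d (log2 -0.97 ± 0.15, SE), Lamtor3 (0.26 ± 0.04), Gbp2b (6.10 ± 0.66), Fam73a (0.31 ± 0.05) and Cryz (0.41 ± 0.06). Pcdhga4 (0.73 ± 0.09), whose exons are shared within its gene cluster, and Tubb6 (0.71 ± 0.12) lie on chromosome 18, Col6a4 (-2.17 ± 0.37) on chromosome 9, and Kptn (-0.39 ± 0.07) on chromosome 7 near C5ar1, from 16119876 to 16127516.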
